A study of Mus musculus with 2 samples.

Results

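The chemokine and chemokine receptor genes of the mouse were examined in maps of open chromatin from whole spleen. Members were the protein-coding genes whose symbols are those of CC, CXC, C and CX3C ligands, of their receptors, or of the atypical receptors. This gave 60 genes of 21938 protein-coding genes in the GENCODE M21 annotation of mm10, with 23 CC ligands, 14 CXC, C and CX3C ligands, 11 CC receptors, 8 CXC, C and CX3C receptors and 4 atypical receptors. The symbols Cxcl11 and Ccl21c matched no protein-coding gene of that annotation on the 21 chromosomes used and are not analysed here.

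DNase-seq cuts open chromatin in nuclei with DNase I and sequences the cut ends. The material was spleen of male B6CASTF1/J mice, an F1 cross, aged 14 days, with no treatment named in the labels. All libraries belong to 1 group, and each of the 2 biological replicates gave 1 library. The labels name 3 males for replicate 1 and 1 male for replicate 2, under the same donor entry, so a difference between the libraries has no replicate check and no test was made. In bulk tissue, fewer cells of a type and less accessible chromatin per cell cannot be told apart.

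Chemokines are small secreted proteins that attract cells by binding receptors coupled to G proteins. In the spleen, CXCL13 draws CXCR5-bearing B cells into follicles, while CCL19 and CCL21 draw CCR7-bearing T cells and dendritic cells into the T-cell zone. CXCL12 acts on CXCR4 and holds precursors and plasma cells in their niches. Atypical receptors bind chemokines without coupling to G proteins in the usual way and scavenge or transport them.

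A promoter was the 1000 bases on each side of any start site of a gene. Each library came with 2 peak lists, and the one covering fewer bases, called the strict list, was the main one. It held 48286 peaks in replicate 1 and 28837 in replicate 2. The signal is the authors' value per peak, the sources used here state no scale for it, and the highest promoter peak of a gene was taken. Over all genes with a promoter peak the median signal was 7.03 in replicate 1 and 4.80 in replicate 2, and the median log2 ratio of replicate 1 to replicate 2 was 0.70 across the 11220 genes that had a promoter peak in each library. Promoter peaks in both libraries were called at 51.1% of all protein-coding genes. Among markers they covered 7 of 8 for red cells, 6 of 8 for B cells and 4 of 8 for stroma and endothelium. They covered 2 of 8 for T cells, 2 of 5 for dendritic cells and 1 of 6 for macrophages. For granulocytes it was 0 of 6 and for natural killer cells 0 of 5. Among 12 markers of liver, pancreas, neuron and muscle, 4 had such a peak: the acinar gene Cela1 (3.727 and 2.245), Ckm, Syn1 and Rbfox3. The hepatocyte gene Apob had 0.462 in replicate 1 alone. The others, the hepatocyte gene Alb and the acinar gene Prss2 among them, had none. The T-cell genes Lck (6.24 and 5.60) and Cd3d (2.75 and 1.24) had a peak in both libraries, Cd3g and Bcl11b in 1, and Cd3e, Cd4, Cd8a and Tcf7 in neither.

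The sequences that carry the result are the DNA at the promoter peaks called in both libraries. Those named for Ccl25 and Ccr9 also lie at promoters of Elavl1 and Slc6a20a. They are read from the RefSeq GRCm38.p6 assembly, which has the mm10 chromosomes, and therefore show the reference allele and not the CAST allele of the cross. Each is printed 5′ to 3′ on the gene's strand, and capitals mark footprints that the authors called in replicate 1, short stretches with few cuts inside an accessible site. Where a window lay over annotated untranslated exons, a stretch with at most 30 bases of them is shown.
Cxcr4 promoter, chr1:128592264-128592450, minus strand: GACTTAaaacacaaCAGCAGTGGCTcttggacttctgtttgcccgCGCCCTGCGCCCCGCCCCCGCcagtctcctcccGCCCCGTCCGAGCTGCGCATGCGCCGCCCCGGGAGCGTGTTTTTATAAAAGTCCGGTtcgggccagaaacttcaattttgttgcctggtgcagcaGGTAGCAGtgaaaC
Ccl25 promoter, chr8:4325095-4325124, plus strand: GGCCCAGACACGCCCCCTGCTCAGCGCGCT
Ccr9 promoter, chr9:123678856-123679000, plus strand: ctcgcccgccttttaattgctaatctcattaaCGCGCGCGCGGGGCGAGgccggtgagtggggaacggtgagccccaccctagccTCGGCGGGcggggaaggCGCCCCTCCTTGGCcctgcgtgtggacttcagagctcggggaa
Ackr3 promoter, chr1:90203861-90204009, plus strand: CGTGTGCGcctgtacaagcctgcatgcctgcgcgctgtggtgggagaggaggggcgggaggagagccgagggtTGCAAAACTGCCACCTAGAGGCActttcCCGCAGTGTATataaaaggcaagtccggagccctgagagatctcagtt
Ackr1 promoter, chr1:173333464-173333493, minus strand: attagccCTGGGCActtATCTTGGAGCCAC
Ccl27a promoter, chr4:41774143-41774172, minus strand: acgGTCCGTTTCCGGGGCGGAGCCAGGGAG
In these stretches TATAAA lay in Cxcr4 and Ackr3, and GGGCGG, the GC box, in Cxcr4, Ccr9, Ackr3 and Ccl27a, on either strand. The Cxcr4 stretch held 3 GC boxes, at bases 57 to 62, 77 to 82 and 102 to 107 from its 5′ end, and 2 of the 3 lay wholly inside footprints. In Ackr1 the GATA-type letters AGATAA stood on the opposite strand at bases 16 to 21, with 4 of the 6 bases inside a footprint. In Ackr3 the 9 bases GCCACCTAG at bases 83 to 91, a match to the CTCF-type core GCCNCCTNG, lay wholly inside a footprint. This core was added to the search after footprints were seen, so its overlap with a footprint carries no weight. The TATAAA letters of Ackr3 had 1 of 6 bases in a footprint, and the GC box of Ackr3 had 0 of 6. The TATAAA letters of Cxcr4 and the GC box of Ccl27a had 6 of 6, and the GC box of Ccr9 had 3 of 6.

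Promoter peaks of 3 receptor and ligand genes that were called in replicate 1 alone are shown beside them, chosen after their values were seen.
Cxcr5 promoter, chr9:44526491-44526520, minus strand: gcaagccctCACTGGCCCCAGGAGACCGCA
Ccr7 promoter, chr11:99155111-99155310, minus strand: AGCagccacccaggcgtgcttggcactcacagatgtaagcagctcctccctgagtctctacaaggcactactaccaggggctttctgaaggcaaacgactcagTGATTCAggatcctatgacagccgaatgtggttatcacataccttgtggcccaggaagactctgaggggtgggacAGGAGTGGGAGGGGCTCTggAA
Cxcl10 promoter, chr5:92348860-92349040, minus strand: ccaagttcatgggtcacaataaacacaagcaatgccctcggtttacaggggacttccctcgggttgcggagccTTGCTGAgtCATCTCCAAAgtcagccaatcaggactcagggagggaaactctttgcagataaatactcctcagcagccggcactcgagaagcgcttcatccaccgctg
The Ccr7 stretch held the AP-1 letters TGATTCA, 7 of 7 bases of them in a footprint. It also held TGTGGTT, the RUNX letters, with 0 of 7 bases in a footprint. Cxcl10 held TGAGTCA, with 5 of its 7 bases in a footprint. The CCAAT letters of Cxcl10 had 0 of 5 bases in a footprint, and its GATA-type letters had 0 of 6. An EBF-type match at bases 55 to 63 of the Cxcl10 stretch had 0 of 9. The Cxcr5 stretch held none of the letters searched.

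Few chemokine and receptor genes had an accessible promoter in this spleen material. A strict promoter peak was called in both libraries at 6 of 60 members, beside 51.1% of all protein-coding genes. In replicate 1 it was 12 members (all genes 56.7%) and in replicate 2 it was 8 (51.4%). A peak in replicate 1 alone was found at 6 members (all genes 5.59%) and in replicate 2 alone at 2 members (all genes 0.283%). In the larger lists 16 members had one in replicate 1 (61.5%), 13 in replicate 2 (57.1%) and 11 in both (56.1%). No list held a promoter peak for 42 members, 29 of 37 ligands and 13 of 23 receptors.

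The 2 other deposited measures gave like counts. At least 1 base with a false discovery rate of the cut rate at or under 0.001 lay in the promoter of 8 members in both libraries (all genes 51.7%). A footprint lay there for 9 members in both libraries (all genes 54.7%).

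**Figure D1:**
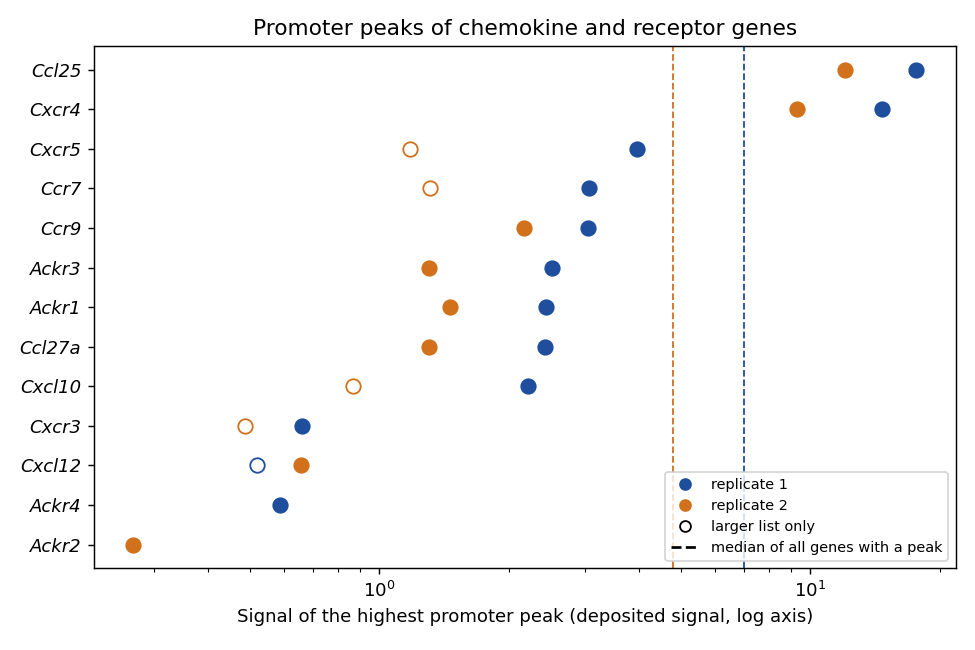
Signal of the highest promoter peak (log axis) for 13 members with a strict promoter peak in at least 1 library, in replicate 1 (blue) and replicate 2 (orange). Open circles are peaks found in the larger list alone, and dashed lines are the medians of all genes with a peak, 7.03 and 4.80, which Ccl25 and Cxcr4 exceed in both libraries and the other 11 members shown do not reach.

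Of the ligands, 2 of 37 had a promoter peak in both libraries (all genes 51.1%). Ccl25, a ligand of CCR9 best known from thymus and small intestine, had the highest signal of any member, 17.6 in replicate 1 and 12.0 in replicate 2 (mean 14.8 ± 3.94, SD, n = 2). This peak, chr8:4325041-4325260, also overlapped a start site of Elavl1, the gene of the RNA-binding protein HuR, and was centred in an exon of Elavl1. It therefore cannot be assigned to Ccl25. Among all genes with a promoter peak it stood at percentile 87.7 and 93.0.

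Ccl27a, a skin-associated ligand of CCR10, had 2 promoter peaks in each library. Its highest reached 2.42 and 1.30 (mean 1.86 ± 0.789, SD, n = 2), percentile 21.7 and 9.07. Near-identical copies limit this gene: 63.8% of the 36-base words in its promoter windows occurred elsewhere in the genome.

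Cxcl10, an interferon-induced ligand of CXCR3, had a peak of 2.22 in replicate 1, centred in an intron of Art3. In replicate 2 the larger list alone held one, at 0.870. Cxcl12, the ligand of CXCR4 and ACKR3, showed the reverse, with 0.659 in replicate 2 and 0.520 in the larger list of replicate 1. Both lay low, Cxcl12 at percentile 1.20 of the promoter signals of replicate 2.

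Ligands that organise the white pulp showed little. Of 5 lymphoid-organ ligands (Ccl19, Ccl21a, Ccl21b, Cxcl12 and Cxcl13) 0 had a strict promoter peak in both libraries (all genes 51.1%). Ccl19, Ccl21a, Ccl21b and Cxcl13 had no strict peak within 20 kb of a start site in either library. For Ccl19, Ccl21a, Ccl21b and the skin ligand Ccl27b, 100% of the 36-base words of the promoter windows occurred elsewhere in the genome, so reads from them may not be placed uniquely and a missing peak says nothing of their accessibility. The sources used here do not say how multiply placed reads were treated.

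The inflammatory CC ligands lie together on chromosome 11, and 11 members are there, among them Ccl2 (a monocyte attractant) and Ccl3, Ccl4 and Ccl5 (attractants of macrophages and T cells). None of the 11 had a strict promoter peak in either library (all genes 56.7% in replicate 1 and 51.4% in replicate 2). Within 20 kb of their start sites lay 4 sites, all of them in the strict list of replicate 1 alone, and the highest signal was 1.31. The larger list of replicate 2 held that highest site, near Ccl3, at 0.521 and the site near Ccl1 at 0.586, and not the others. Ccl2 and Ccl6 had a promoter peak in the larger list of replicate 1, at 0.403 and 0.436. Of the 8 CXC ligands on chromosome 5, Cxcl10 had a strict promoter peak and 3 had no site within 20 kb. The 5 ligands of CXCR2, which draw neutrophils, had 0 strict promoter peaks in either library (all genes 56.7% and 51.4%). Cxcl1 had 0.374 in the larger list of replicate 2.

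Receptors had a promoter peak in both libraries at 4 of 23 genes (all genes 51.1%), and in replicate 1 at 9 of 23 (56.7%). Cxcr4, the receptor for CXCL12 found on most blood cells and their precursors, had by far the most accessible promoter that could be assigned to a member. Its peak at chr1:128592241-128592460 reached 14.6 and 9.33 (mean 12.0 ± 3.75, SD, n = 2), percentile 80.4 and 83.1 of all promoter signals. Its promoter held a second peak in each library, 1.38 and 1.14, and 14 and 18 footprints.

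Ccr9, the gut- and thymus-homing receptor that binds CCL25, had a peak of 3.05 and 2.16 (mean 2.61 ± 0.625, SD, n = 2). The peak lay 362 bases from the upstream start site of Ccr9 and over a start site of Slc6a20a, a neighbouring transporter gene. It therefore cannot be assigned to Ccr9. The start sites of Ccr9 lie far apart. At the downstream ones no strict promoter peak was called, and the nearest sites were centred at -4115 bases (1.43 in replicate 1, none in replicate 2) and at -12639 bases (1.72 and 0.870), where negative is upstream.

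Cxcr5 and Ccr7, the receptors that guide B cells into follicles and T cells into the T-cell zone, had promoter peaks in replicate 1 alone. Cxcr5 reached 3.96 there, and the larger list of replicate 2 held 1.18. Ccr7 reached 3.07, with 1.31 in the larger list of replicate 2. Thus in both genes the second library also had a peak, below the strict list. The same held for Cxcr3, a receptor of activated T cells, with 0.663 and 0.488.

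Of 6 lymphocyte homing receptors (Ccr6, Ccr7, Ccr9, Cxcr3, Cxcr4 and Cxcr5), 5 had a strict promoter peak in replicate 1 (all genes 56.7%), 2 in both libraries (51.1%) and 5 in both larger lists (56.1%). Each of these counts includes Ccr9, whose peak overlaps a start site of Slc6a20a. Of 8 myeloid receptors 0 had a strict promoter peak in both libraries (51.1%). Atypical receptors aside, the receptors placed in neither list were Ccr1l1, Ccr4, Ccr8, Ccr10 and Cxcr6. None of them had a promoter peak, strict or larger, in either library, so the count for homing receptors depends on which genes were listed. The 2 lists were not tested against each other. They were drawn up with earlier results of these data known, and the B-cell markers Ms4a1 and Blk likewise had a strict promoter peak in replicate 1 alone (2.12 and 1.73).

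Ackr3, the scavenger of CXCL12, had a peak of 2.52 and 1.30 (mean 1.91 ± 0.860, SD, n = 2). Ackr1, the chemokine-binding protein of red cells and venules, had 2.43 and 1.46 (mean 1.95 ± 0.692, SD, n = 2), with 3 promoter peaks in replicate 1 and 1 in replicate 2. Its peak was centred in an exon of Cadm3, which overlaps Ackr1. Ackr4, the scavenger of CCL19, CCL21 and CCL25, had a peak of 0.588 that lay 635 bases from its start site in replicate 1, and none in replicate 2.

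The 6 members with a peak in both libraries were all higher in replicate 1, with log2 ratios from 0.49 to 0.95 around the median of 0.70 over all genes. When peaks that also lay at the promoter of another gene were left out, 4 members remained: Cxcr4, Ackr3, Ackr1 and Ccl27a.

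Ackr2, the scavenger of inflammatory CC ligands, stood apart between the libraries. In replicate 2 a run of 17 sites covered 12.1 kb, chr9:121898141-121910280, from the promoter through introns and exons of the gene. Their signals ran from 0.163 to 0.659 with a median of 0.228. In replicate 1 a single site of the 17 was called, at 1.64. The highest promoter peak of Ackr2 in replicate 2 was 0.268, at percentile 0.0798 of the promoter signals of that library. In 1 site of the run 73.8% of the 36-base words occurred elsewhere in the genome, while 115 of all 121 sites near members had under 10% such words. The cause of the run was not tested. Sites within 20 kb that were called in replicate 2 alone numbered 18 over all members, and 2 without Ackr2.

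**Figure D2:**
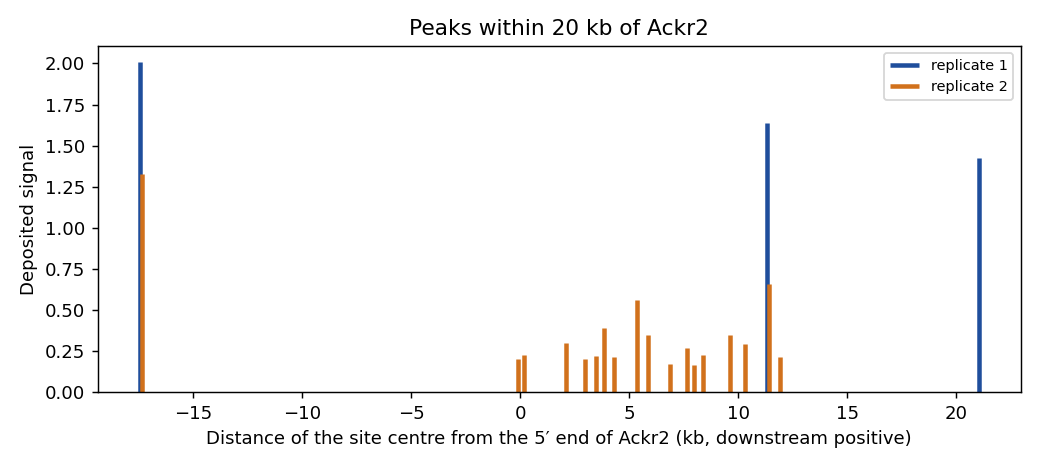
Signal of each site (vertical lines) within 20 kb of an Ackr2 start site against its distance from the 5′ end of the gene in kb, for replicate 1 (blue) and replicate 2 (orange). The 17 sites of the run, from 0.163 to 0.659, belong to replicate 2, and replicate 1 has 1 of them, at 1.64.

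The low share of accessible promoters went along with a low CpG content. The ratio of observed to expected CG pairs in the 1000 bases round the 5′-most start site had a median of 0.213 over members, 0.553 over all protein-coding genes and 0.738 over genes with a promoter peak in both libraries. Ligands (0.216) and receptors (0.211) were alike. A ratio under 0.4, the low class, held 49 of the 60 members (81.7%) and 40.0% of all genes. A promoter peak counted at any start site, so the ratio and the peak can belong to different start sites. This was so for Cxcr5 and Ackr4, whose peaks lay far downstream of the 5′ end of the gene.

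Within the classes the counts were as follows. In the low class 2 of 49 members had a promoter peak in both libraries (all genes of that class 14.7%), and 7 of 49 in replicate 1 (20.3%). In the middle class, from 0.4 to 0.75, 2 of 8 members had one in both (65.2%), and in the high class 2 of 3 (87.5%). Those 2 of the high class are Ccl25 and Ccr9, whose peaks are shared with other genes, and the third is Cxcl12. Cxcr4 and Ccl27a are of the middle class, and Ackr1 and Ackr3 of the low class.

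**Figure D3:**
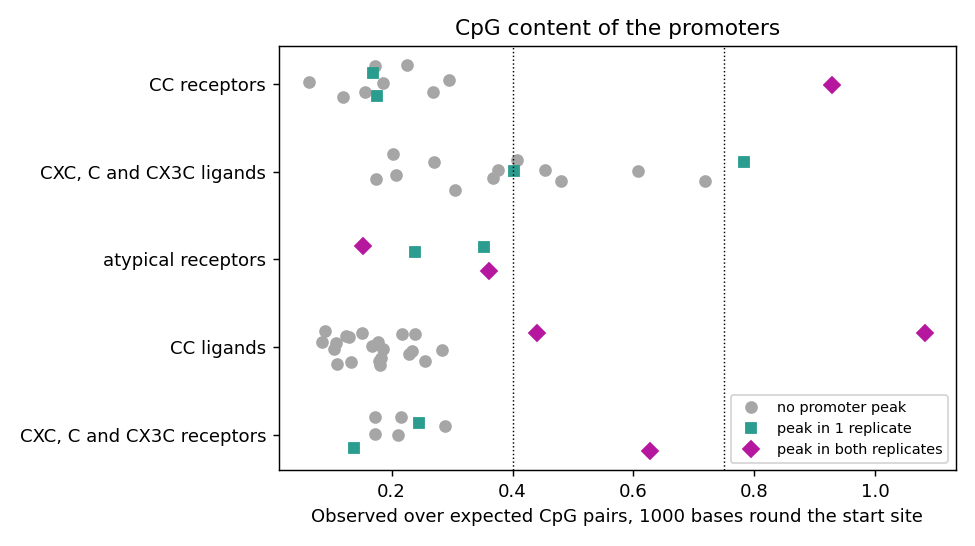
Observed over expected CpG pairs round the 5′-most start site (horizontal) of the 60 members by role, with vertical scatter for legibility. Diamonds have a promoter peak in both libraries, squares in 1 and grey circles in none, and dotted lines at 0.4 and 0.75 bound the classes, the lowest of which holds 49 members.

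Accessible sites further from the start were less scarce. A strict peak lay within 20 kb of a start site of 40 members in replicate 1 (all genes 72.2%), 29 in replicate 2 (65.7%) and 27 in both (65.3%). In the larger lists 35 members had one in both (71.5%). Distal peaks, over 1000 bases from every protein-coding start site, lay within 20 kb of 34 members in replicate 1 (50.2%), 23 in replicate 2 (32.0%) and 21 in both (31.4%), so that for distal peaks the members' shares of 56.7%, 38.3% and 35.0% were close to those of all genes. Of these 21, 14 were among the 23 receptors and 7 among the 37 ligands. The CC receptors had one in both libraries at 9 of 11 genes, neighbours that partly share sites.

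Merged over the libraries, 121 sites lay within 20 kb of a member, 49 of them in both libraries (40.5%, beside 49.7% of all sites in the genome). Without Ackr2, with its run of sites in replicate 2, there were 102 sites, 47 of them in both. Of the 121, 17 lay at the promoter of another gene and 14 of these were in both libraries, with median signals of 5.40 and 3.53. They include Slc25a38 beside Ccr8 (15.3 and 9.36), Fyco1 beside Xcr1 (11.8 and 6.08), Hip1 beside Ccl26 (11.4 and 5.16) and Med11 beside Cxcl16 (9.48 and 5.63). For 3 members, Ccl26, Xcr1 and Cxcl16, such promoters made up all sites called in both libraries. No strict peak within 20 kb was called in either library for 18 members (all genes 27.4%), 16 ligands and the 2 receptors of neutrophils, Cxcr1 and Cxcr2. The 16 ligands include Ccl19, Ccl21a, Ccl21b and Ccl27b, whose promoter windows are repeated elsewhere as given above.

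**Figure D4:**
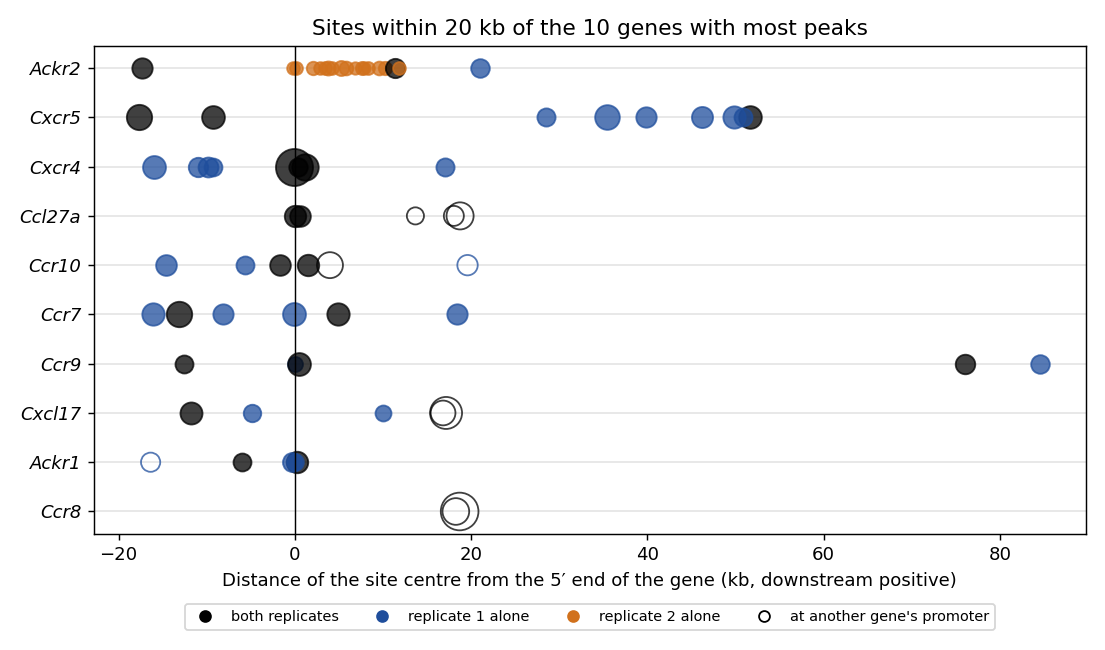
Sites within 20 kb of a start site of the 10 members with most peaks, by distance from the 5′ end of the gene in kb (genes such as Cxcr5 and Ccr9 have start sites far downstream of it). Area grows with signal, colour gives the library, open circles lie at another gene's promoter, and the run of sites in replicate 2 alone is seen at Ackr2.

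There were 66 distal sites whose nearest gene was a member, 48 nearest a receptor and 18 nearest a ligand. Of these, 21 were called in both libraries, 15 at receptors and 6 at ligands (31.8%, beside 35.5% of all distal sites of the genome). Without Ackr2, with its run of sites in replicate 2, there were 54 distal sites, 36 of them nearest a receptor, and 19 (35.2%) were called in both libraries. Among the 21, 18 were higher in replicate 1 and 8 stood at or above percentile 75 of all distal peaks in each library. The sequences of the 4 with the highest mean are shown, with 2 more at Ccr7 and Cxcr5 chosen after their values were seen.
Ccl22 distal site, chr8:94733861-94734060, plus strand: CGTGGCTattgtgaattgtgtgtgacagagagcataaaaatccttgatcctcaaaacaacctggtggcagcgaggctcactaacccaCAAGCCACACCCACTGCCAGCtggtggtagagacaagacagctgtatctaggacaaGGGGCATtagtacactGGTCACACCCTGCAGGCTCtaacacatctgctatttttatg
Ccl17 distal site, chr8:94812881-94813080, plus strand: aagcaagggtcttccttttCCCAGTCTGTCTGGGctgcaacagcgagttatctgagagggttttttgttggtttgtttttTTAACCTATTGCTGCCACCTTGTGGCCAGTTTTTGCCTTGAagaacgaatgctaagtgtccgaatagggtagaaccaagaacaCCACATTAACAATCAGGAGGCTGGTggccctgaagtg
Ccr6 distal site, chr17:8232171-8232370, plus strand: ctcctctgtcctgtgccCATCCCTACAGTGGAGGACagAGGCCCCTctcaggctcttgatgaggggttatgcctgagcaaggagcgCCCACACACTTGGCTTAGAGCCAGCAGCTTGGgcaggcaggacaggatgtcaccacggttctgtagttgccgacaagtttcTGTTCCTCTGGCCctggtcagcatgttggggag
Cxcr4 distal site, chr1:128590981-128591180, minus strand: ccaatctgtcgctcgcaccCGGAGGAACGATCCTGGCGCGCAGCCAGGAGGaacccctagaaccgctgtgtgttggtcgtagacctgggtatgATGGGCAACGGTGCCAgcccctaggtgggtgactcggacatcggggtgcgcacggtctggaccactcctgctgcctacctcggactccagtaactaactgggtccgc
Ccr7 distal site, chr11:99168151-99168350, minus strand: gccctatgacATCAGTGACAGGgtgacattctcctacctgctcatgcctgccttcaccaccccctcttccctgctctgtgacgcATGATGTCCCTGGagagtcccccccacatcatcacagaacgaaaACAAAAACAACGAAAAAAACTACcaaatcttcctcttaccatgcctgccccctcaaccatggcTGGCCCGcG
Cxcr5 distal site, chr9:44579461-44579660, minus strand: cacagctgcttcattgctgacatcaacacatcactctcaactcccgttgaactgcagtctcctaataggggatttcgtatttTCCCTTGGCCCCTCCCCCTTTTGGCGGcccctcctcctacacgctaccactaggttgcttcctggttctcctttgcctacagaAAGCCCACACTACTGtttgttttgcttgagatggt
The Ccl22 stretch held CAGCTG, an E-box, at bases 105 to 110 and 126 to 131, with 4 of 6 and 0 of 6 bases inside a footprint. The Ccl17 stretch held GCCACCTTG at bases 94 to 102, a match to GCCNCCTNG with 9 of 9 bases inside a footprint. That core was added to the search after footprints were seen, so this overlap carries no weight either. The Ccl17 stretch also held AGATAA on the opposite strand, with 0 of 6 bases in a footprint. The Cxcr4 stretch held CCAAT and the Cxcr5 stretch CAGCTG, each with 0 bases in a footprint. The Ccr6 stretch held an IRF-type match to GAANNGAAA on the opposite strand at bases 164 to 172, with 5 of its 9 bases inside a footprint.

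Ccl22 and Ccl17, the ligands of CCR4 made by dendritic cells and macrophages, had no promoter peak in any list, yet the 2 distal sites with the highest mean over the libraries lay beside them on chromosome 8. In replicate 1 alone the Ccl17 site was below those of Ccr6 and Cxcr4, and in replicate 2 alone the Ccl22 site was below those of Ccl17 and Cxcr4. The site upstream of Ccl22, centred at -11630 bases, reached 6.19 and 2.55. The site downstream of the Ccl17 start, at 2527 bases, reached 4.71 and 3.33. Cx3cl1, the membrane-bound ligand of CX3CR1 between them, had 2 sites at 13675 and 15625 bases, with 3.49 and 2.32 and with 3.73 and 1.67. Thus 3 ligand genes in 1 stretch of chromosome 8 had distal sites in both libraries without a promoter peak. Distance is the only link between these sites and the genes.

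Ccr6, a receptor of B cells and of T helper subsets, had no promoter peak in any list and a site at -3773 bases with 5.56 and 2.34. The Cxcr4 site at 1210 bases, in its intron, reached 5.02 and 2.85, percentile 95.8 and 87.4 of distal peaks. Upstream of Cxcr4, 4 more sites between -9268 and -15997 bases were called in the strict list of replicate 1 alone, from 1.21 to 3.07. The highest of them, at -15997 bases, had 1.02 in the larger list of replicate 2, which did not hold the others.

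At Cxcr5 the sites at -17683 bases (4.31 and 2.03) and at -9283 bases (3.01 and 1.06) were called in both libraries, although the strict promoter peak was called in replicate 1 alone. These distances are from the 5′ end of the gene, chr9:44561877. The promoter peak, chr9:44526381-44526560, lay at a start site further downstream, so the sites are farther from that peak than the distances given. At Ccr7 the site at -13173 bases (4.40 and 1.39) and the intron site at 4957 bases (2.82 and 2.37) were called in both. So for both homing receptors the sites shared by the strict lists were distal ones. In the larger lists both genes also had a promoter peak in both libraries. At Cxcr5 that of replicate 2 (1.18) was above the replicate 2 signal of the site at -9283 bases (1.06).

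Lower sites in both libraries lay at Ccr3, the receptor of eosinophils, at 15968 bases (3.30 and 1.74), and at Cxcl17, a mucosal ligand, at -11754 bases (2.68 and 2.03). Ccr10, a receptor for CCL27 and CCL28, had one at 1463 bases in an exon (2.44 and 1.72). Ccr4, the receptor of CCL17 and CCL22, had one in an intron, at -1853 bases from an internal start site (1.16 and 1.43). Cx3cr1 had one upstream at -3481 bases (1.60 and 1.55).

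**Figure D5:**
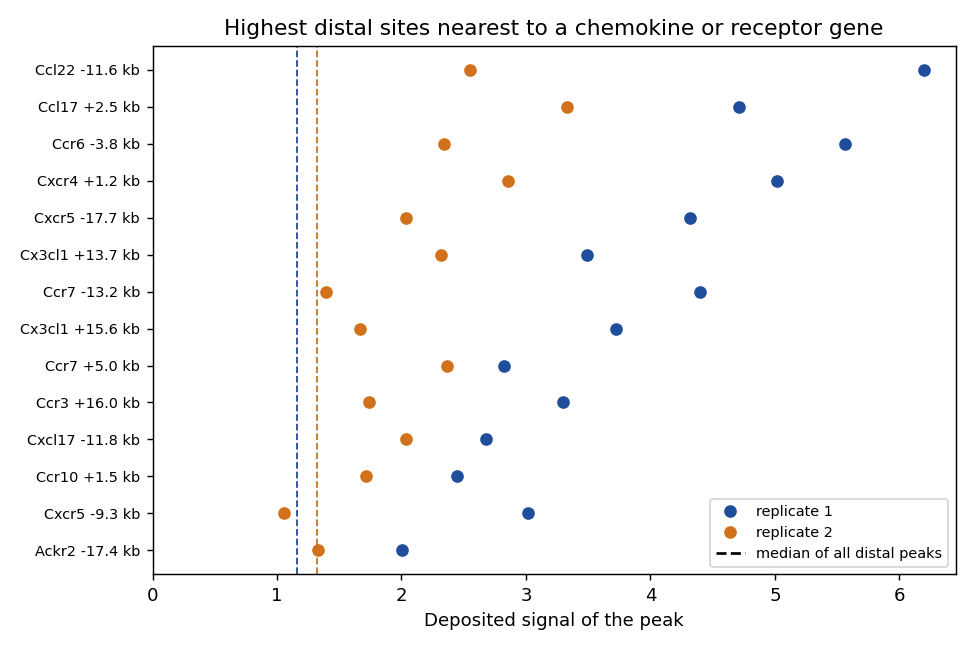
Signal in replicate 1 (blue) and replicate 2 (orange) of 14 of the highest distal sites nearest to a member, labelled by the gene and the distance from its nearest start site in kb. Dashed lines are the medians of all distal peaks, 1.16 and 1.32, and sites are ordered by the mean of the libraries, by which the site upstream of Ccl22 (6.19 and 2.55) comes first, while in replicate 2 the site at Ccl17 is higher (3.33).

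Letters at the sites were counted in 200-base windows on both strands, beside all windows of the same kind in replicate 1. Of 12 promoter windows of members, 4 held GGGCGG (64.2% of all 11166 windows), 2 held CCAAT (32.6%) and 2 held TATAAA (2.58%). AGATAA was in Ackr1 and Cxcl10 (2.41%), TGANTCA in Ccr7 and Cxcl10 (2.37%), and TGTGGTT, the RUNX letters, in Ccr7 and Cxcr3 (2.28%). Of 55 distal windows, CAGCTG was in 16 (19.4% of all 27640), 3 of which were at Ccl22 and 3 at Cxcr4. GAANNGAAA was in 7 (7.58%), 2 of them at Ccr6. The CTCF-type core GCCNCCTNG, added after footprints were seen, was in 11 (12.2%), and CAGGTG in 9 (21.0%). Among the 12 promoter windows that core was in 1, at Ackr3 (12.2% of all promoter windows). A match is a string of letters and does not show a bound factor.

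Genes that act below the receptors were counted in the same way. Promoter peaks in both libraries were called at 14 of 15 genes of G protein and kinase signalling, led by Cdc42 (20.1 and 11.4), a small GTPase of cell polarity, Gnai2 (20.6 and 10.3), the inhibitory G protein subunit, and Tiam1 (16.4 and 7.81), which activates Rac. Pik3cg, a lipid kinase driven by G proteins, had 1.63 in replicate 1 and none in replicate 2. All 8 genes of integrin adhesion had one in both, led by Itga4 (17.2 and 10.7), Rap1b (16.6 and 10.8) and Tln1 (11.7 and 5.07), which act in the arrest of rolling cells. The Tln1 peak also lay at a promoter of Creb3, and that of Plcb3, a gene of the signalling list, at one of Ppp1r14b. Neither peak can be assigned to the listed gene.

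Receptor desensitisation had 10 of 14 genes with a peak in both. The kinase Grk6 reached 27.3 and 11.7, the arrestin Arrb2 15.9 and 9.73, and the kinase Grk5 11.4 and 7.48, while Grk3 had 0.890 in replicate 1 and none in replicate 2. Of 8 related genes outside the symbol rule 5 had a peak in both. These include Cd74, the receptor of MIF (6.89 and 2.30), S1pr1, the receptor for egress from lymphoid tissue (6.12 and 2.93), and Mif (5.25 and 3.49). Gpr183, which positions B cells by oxysterols, had none in either library. The share of all genes with a peak in both is 51.1%, as above, and no test was made of any list.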

How the data were processed

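The deposited files give peaks, false discovery rates and footprints for each library on mm10, per the labels and file descriptions. No aligner, caller or version is named there; the sources used here do not give them. Peak signal is the authors' value in the deposited peak lists, with no stated scale. The authors' rate file holds a false discovery rate of the cut rate, on the scale of a p-value, and lists only bases under 0.05. The deposited footprints carry 1 constant score of 0.01, and their positions were used. Read depth is unknown here.

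Peaks were matched to GENCODE M21 start sites with Python 3.11.15 (pandas 2.3.3, numpy 2.4.6), checked on simulated peaks at known distances. Peaks overlapping by at least 1 base were merged into a site. Sequence came from the GRCm38.p6 FASTA with pysam 0.24.0. Copies were counted as 36-base words found again, on either strand, in the chromosomes and unplaced contigs.

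Members and lists were chosen with earlier results of these data known. Named are members with a strict promoter peak, the 10 with most peaks within 20 kb, the 10 highest distal sites nearest a member and, per pathway list, the 3 genes of highest mean promoter signal and the first alphabetically without a peak in both libraries. Other genes named, such as Ccl2, Ccr4 and Cx3cr1, were chosen after their values were seen. Alternatives were the larger lists, stronger peaks, other windows and each library alone. The values of 1 member are not reported here.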

Additional observations from a re-analysis of the deposited data

How the results depend on the processing

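Of 60 members, 6 had a promoter peak in both libraries. This became 11 with the larger lists and 3 with the strongest 50% of peaks, and it ran from 8 to 12 when either library was used alone. Members with a peak within 20 kb in both libraries numbered 27, against 17 with the strongest 50% of peaks, 41 within 50 kb and 29 to 40 in single libraries. Sites in both libraries numbered 49, against 26 with the strongest 50% of peaks, 27 within 10 kb, 113 within 50 kb and 67 to 103 in single libraries. Without Ackr2 they numbered 47. The alternatives set fewer or more peaks or bases, which fixes the direction of these shifts. No paired analysis was possible because there is 1 group. With 2 libraries and no read depth, a peak missing in 1 of them does not show closed chromatin there.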
